A study of Drosophila melanogaster with 6 samples.

Results

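HttQ138, a huntingtin protein with an expanded polyglutamine tract and an mRFP tag, was expressed in the progenitor cells of the Drosophila midgut, and the RNA of the sorted cells was set against that of w1118 progenitor cells without it. The genes described are the 5346 protein-coding genes with at least 10 FPKM (fragments per kilobase of transcript, scaled to the mapped fragments of the library) in either of these libraries, of 15603 genes listed and 13633 matched to protein-coding genes. Of them, 4550 reached 10 FPKM in both libraries. They were ranked by the log2 ratio of FPKM + 1, HttQ138 over w1118, and 106 genes were set aside as proteases (50), proteasome subunits (36) or autophagy genes (20), which leaves 5240. The 903 listed snoRNA, snRNA, tRNA and mir- symbols were left out.

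Both groups were 7-day-old females that carried esg::Gal4, UAS::GFP and the temperature-sensitive repressor tub::Gal80ts, and both spent 2 days at 29 °C, which releases Gal4. The HttQ138 flies carried UAS::mRFP-HttQ138 in addition, and in the w1118 flies the driver had no such target. The GFP-positive cells of about 100 guts were pooled for each library, so that a library averages over many animals. The other libraries are those labelled CncCRNAi+HttQ138 and CncCRNAi, with RNAi against the Nrf2 homologue CncC at the same time and temperature, and those labelled Rpn3RNAi and attP2, after 4 days at 29 °C, of which attP2 is the control of RNAi against a subunit of the proteasome lid and carries the attP2 landing site. There was 1 library per group, so no difference has a replicate check and no test was made. Ratios are given with an exact 95% binomial interval of the estimated fragments, which covers counting error only. A gene is called higher or lower where FPKM + 1 differed at least 2-fold.

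The midgut epithelium is renewed by intestinal stem cells (ISCs), which divide to give enteroblasts (EBs) that mature into enterocytes, and precursors of the hormone-secreting enteroendocrine cells. ISCs and EBs express the transcription factor escargot (esg), whose promoter drives the Gal4 used here, while enterocytes digest and absorb food behind a chitin-rich peritrophic matrix. Expanded polyglutamine proteins form aggregates that cells clear through chaperones, the proteasome and autophagy.

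The libraries held an estimated 2780000 to 3640000 fragments, 3270000 of them in HttQ138 and 3070000 in w1118, from 16611 sorted HttQ138 cells and 24387 sorted w1118 cells. One fragment of a 1000-nucleotide transcript is worth 0.362 FPKM in HttQ138 and 0.385 FPKM in w1118. The RNA of the transgene was not analysed here. The RNA of cnc itself was at 64.4 FPKM in the CncCRNAi library and at 63.8 FPKM in w1118, so the RNA of the whole gene was not lower with the RNAi against it. The values are per gene, so a change in single transcripts of cnc cannot be seen, and protein was not measured here. In the paper, Dacapo accumulation with HttQ138 was not observed when this RNAi was expressed as well. esg stood at 315 FPKM in HttQ138 and 346 FPKM in w1118, and the 12 markers of ISCs and EBs summed to 2581 FPKM in HttQ138 and 3533 FPKM in w1118. The 13 enterocyte markers summed to 496 FPKM in HttQ138 and 282 FPKM in w1118, against 548 to 2108 FPKM in the other 4 libraries, so that w1118 held the least of them. The 14 visceral muscle markers summed to 407 FPKM in HttQ138 and 389 FPKM in w1118, nearly all of it Tm1. The other 13 summed to 34.2 FPKM in HttQ138 and 14.8 FPKM in w1118, with Act57B at 5.82 FPKM in HttQ138 and 0.620 FPKM in w1118, and 4 of them were listed at 0 in w1118 and none in HttQ138. The 6 hemocyte markers summed to 179 FPKM in each, nearly all of it crq, and the other 5 to 18.3 FPKM in HttQ138 and 9.27 FPKM in w1118. The part of these cells in the results was not tested. The sums of fat body (12.4 and 26.8 FPKM), Malpighian tubule (19.1 and 9.26 FPKM), trachea (17.01 and 18.6 FPKM), nerve (6.65 and 5.43 FPKM) and ovary (0.331 and 0.308 FPKM, in HttQ138 and w1118) were low. In a bulk library, fewer cells of a type and less RNA per cell cannot be told apart.

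Of the 5346 genes, 298 were higher in HttQ138, which is 5.57% of them, and 179 were lower, which is 3.35%. Beyond proteases, proteasome and autophagy there were 256 higher and 176 lower genes. The 256 had a median FPKM ratio of 3.14, and 84 were over 4-fold higher, while the 176 had a median ratio of 0.412, and 13 were over 4-fold lower. The counting interval of the ratio lay on one side of 1 for 245 of the 256 and for 175 of the 176. The higher genes were mostly scarce in w1118: 160 of the 256 stood under 10 FPKM there and 12 were listed at 0, while 75 of the 176 lower genes stood under 10 FPKM in HttQ138. A gene that passed the limit only in the library where it was high had to differ, so the counts and medians of the function lists below are descriptions that include such genes. The 10 FPKM limit passed CG18473 with 10.007 FPKM in HttQ138 and 5.75 FPKM in w1118, and BTBD9 with 6.79 FPKM in HttQ138 and 10.01 FPKM in w1118, and it left out Rca1 with 2.84 FPKM in HttQ138 and 9.99 FPKM in w1118.

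**Figure D1:**
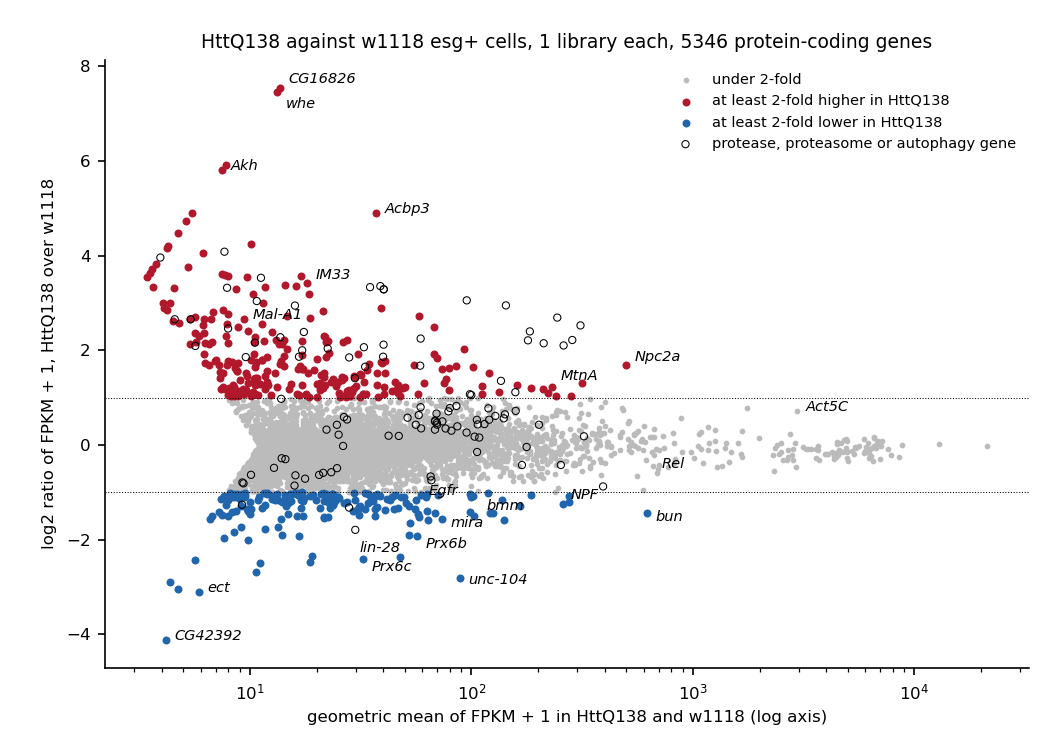
Log2 ratio of FPKM + 1, HttQ138 over w1118, against the geometric mean of FPKM + 1 in the 2 libraries (log axis) for 5346 genes. Red and blue points are the 256 higher and 176 lower genes, open circles are the 106 protease, proteasome and autophagy genes, and dotted lines mark 2-fold. The largest ratios belong to genes that w1118 lists at 0, such as CG16826 and whe.

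The same rule was applied between libraries without HttQ138. CncCRNAi over w1118 gave 8.58% of genes higher and 1.6% lower, and attP2 over w1118 gave 5.11% higher and 2.39% lower. These comparisons share the w1118 library with the comparison of interest, and attP2 also differs from it in its days at 29 °C. Of the 256 higher genes, w1118 had the lowest of all 6 values in 168, and HttQ138 the highest in 84. HttQ138 was at least 2-fold above CncCRNAi in 106 of them and above attP2 in 108, where 3.64% and 3.72% of all genes were, and above each of the 3 controls in 80. Of the 176 lower genes, w1118 had the highest of 6 values in 144 and HttQ138 the lowest in 100, and 18 were at least 2-fold below each of the 3 controls, where HttQ138 was that far below CncCRNAi in 6.82% and below attP2 in 3.79% of all genes. The 256 and 176 genes were chosen by the same HttQ138 library, so shares above those of all genes follow from the choice. The counts against each of the 3 controls include w1118, which the ranking used, and their share of all genes was not counted.

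A pair of libraries that the ranking did not use carried HttQ138 in the CncCRNAi background. With CncCRNAi+HttQ138 over CncCRNAi, 1.28% of 5483 genes were higher and 2.21% lower. Of the 256 higher genes, 189 reached 10 FPKM in this pair, where 130 (68.8%) had a log2 ratio above 0, 34 (18.0%) were called higher and 11 called lower, with a median of 0.28. Of the 176 lower genes, 144 reached it, where 16 (11.1%) had a log2 ratio above 0, none was called higher and 13 (9.03%) were called lower, with a median of −0.50. Among all 5082 members measured in both pairs, 37.9% lay above 0, 1.22% were called higher and 1.36% lower, and the median was −0.10. The median of the genes higher in HttQ138 thus lay above that of all genes in the CncCRNAi pair, and the median of the lower genes lay below it, each at a smaller size than against w1118.

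**Figure D2:**
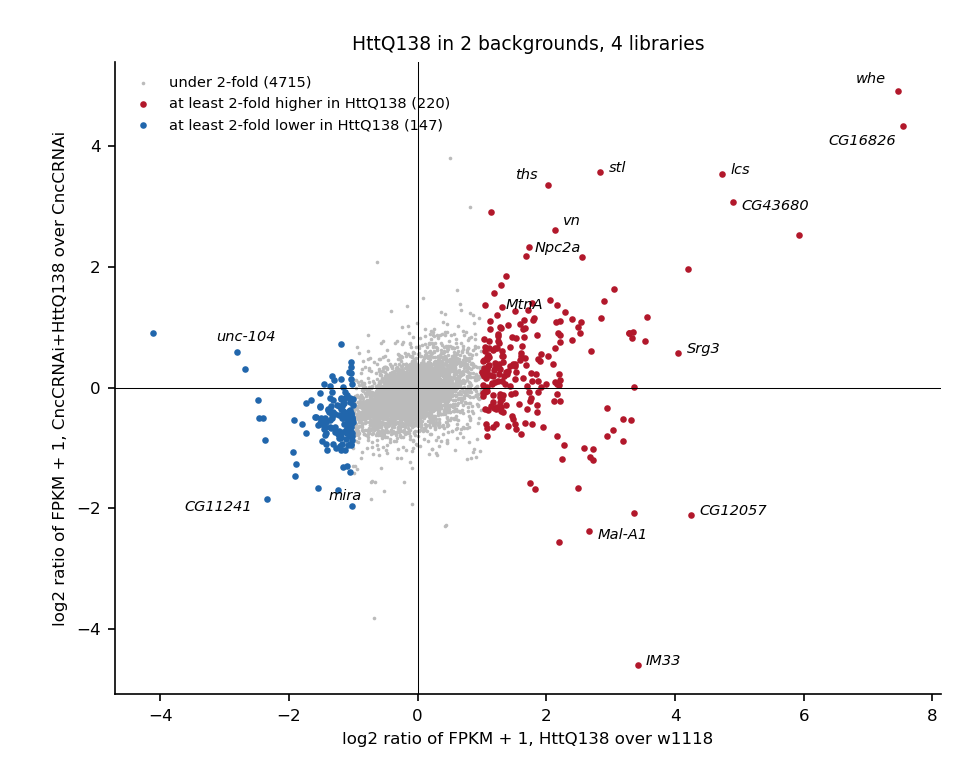
Log2 ratio of FPKM + 1 with HttQ138 in the CncCRNAi background (y axis) against the same ratio for HttQ138 over w1118 (x axis), for 5082 genes with at least 10 FPKM in both pairs. Of the 220 red genes (proteases, proteasome and autophagy included), 41 were also called higher on the y axis, and none of the 147 blue genes was. whe, CG16826, stl, ths and vn stand high on both axes, while IM33, Mal-A1 and CG12057 have opposite signs.

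The largest rises were in genes listed at 0 in w1118. CG16826 stood at 186 FPKM in HttQ138 against 0 in w1118, and at 267 FPKM in CncCRNAi+HttQ138 against 12.3 FPKM in CncCRNAi. whe (CG1678) stood at 175 FPKM in HttQ138 against 0 in w1118, and at 354 FPKM in CncCRNAi+HttQ138 against 10.8 FPKM in CncCRNAi. CG34212, a transcript of 316 nucleotides, stood at 59.6 FPKM in HttQ138 against 0 in w1118, and at 270.1 FPKM in CncCRNAi+HttQ138 against 45.7 FPKM in CncCRNAi. Each of the 3 was therefore high in both libraries with HttQ138 and lower in both controls, with fold values in the CncCRNAi pair of 21.7 (16.1 to 29.9) for CG16826, 32.9 (16.8 to 66.0) for whe and 5.91 (3.90 to 9.51) for CG34212. In Rpn3RNAi and attP2 cells they did not show this pattern: CG16826 had 32.1 FPKM in Rpn3RNAi and 29.3 FPKM in attP2, and whe and CG34212 were listed at 0 in Rpn3RNAi against 7.02 and 25.9 FPKM in attP2. CG43680 (28.9 FPKM in HttQ138, 0 in w1118) and lcs (25.5 FPKM in HttQ138, 0 in w1118) also rose in the CncCRNAi pair, with lcs at 50.6 FPKM in CncCRNAi+HttQ138 against 3.44 FPKM in CncCRNAi.

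The remaining genes among the 15 largest rises varied more between libraries. Acbp3 (CG8628), a member of the acyl-CoA binding protein family, stood at 202 FPKM in HttQ138 against 5.80 FPKM in w1118, 34.8 times as much (13.7 to 102), and at no more than 21.6 FPKM in any other library. CG12057 stood at 43.0 FPKM in HttQ138 against 1.32 FPKM in w1118, but at 2.13 FPKM in CncCRNAi+HttQ138 against 12.6 FPKM in CncCRNAi. Srg3 (CG33926) stood at 24.1 FPKM in HttQ138 and 0.510 FPKM in w1118, with 9.57 FPKM in CncCRNAi and 18.8 FPKM in attP2. The others were CG14499 (21.4 FPKM in HttQ138, 0 in w1118), CG43679 (12.1 FPKM in HttQ138, 0 in w1118), the Toll-induced peptide gene Dso2 (16.9 FPKM in HttQ138, 0 in w1118), Akh and LManVI, which are described with their functions, and CG34263 and sloth1. All exon bases of CG34263 are shared with mRpL17 and all those of sloth1 with sloth2 in the annotation, so their values of 17.3 and 13.2 FPKM in HttQ138 against 0 and 0.000387 FPKM in w1118 cannot be told apart from how reads were split between overlapping genes.

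**Figure D3:**
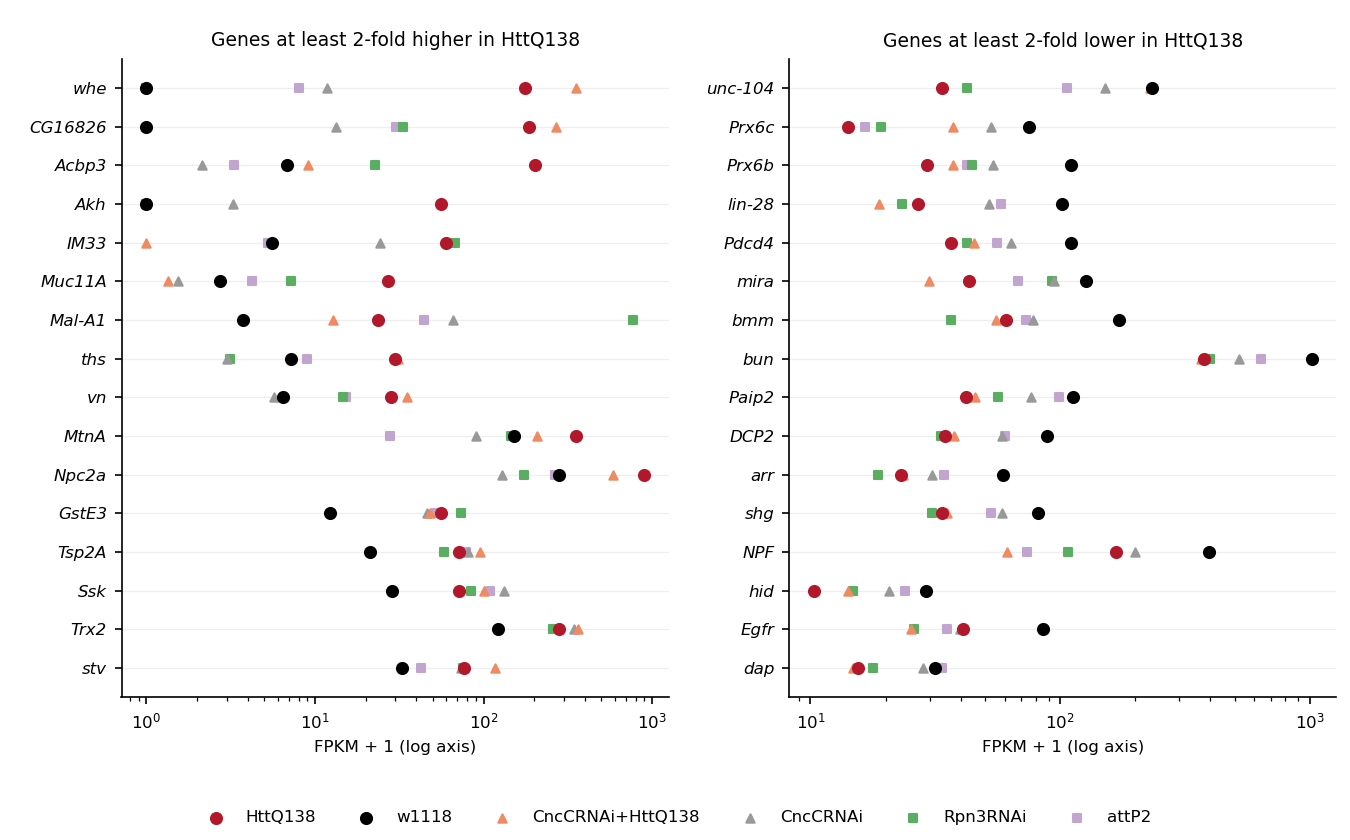
FPKM + 1 (log axis) in each of the 6 libraries for 16 genes called higher (left) and 16 called lower (right) in HttQ138, chosen among the named genes. Red circles are HttQ138 and black circles w1118, triangles are the CncCRNAi pair and squares the Rpn3RNAi and attP2 libraries. For GstE3, Tsp2A, Ssk, Trx2 and stv the black circle is the lowest of the 6, and for bun, bmm, Pdcd4, shg and Egfr it is the highest of the 6.

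Digestive enzymes and gut lining proteins gave lists with medians above that of all genes. Of 4 maltases and amylases that reached 10 FPKM (14 listed), 3 rose, with a median log2 ratio of 1.29 against −0.08 over all genes. Mal-A1, a maltase, stood at 22.7 FPKM in HttQ138 against 2.73 FPKM in w1118, a ratio of 8.31 (4.77 to 15.7). Its values in the other libraries were 11.8 FPKM in CncCRNAi+HttQ138 against 65.1 FPKM in CncCRNAi, and 768 FPKM in Rpn3RNAi against 43.5 FPKM in attP2, so that HttQ138 lay below 2 of the 3 controls. The amylase genes Amy-p (51.0 FPKM in HttQ138, 19.8 FPKM in w1118) and Amy-d (36.7 FPKM in HttQ138, 14.8 FPKM in w1118) are near-identical copies whose reads can be split between them. Of 6 genes of odorant, chemosensory and pheromone binding, 3 rose, all of which reached 10 FPKM in HttQ138 only, with a median of 1.38.

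Of 10 genes of the peritrophic matrix and mucins (66 listed), 5 rose and none fell, with a median of 1.14, and 3 of the 5 (Mur29B, Mur18B and Muc11A) reached 10 FPKM in HttQ138 only. The mucin genes Mur29B (25.2 FPKM in HttQ138, 1.13 FPKM in w1118), Mur18B (36.2 FPKM in HttQ138, 2.67 FPKM in w1118) and Muc11A (26.1 FPKM in HttQ138, 1.74 FPKM in w1118) rose by 22.3-fold (9.96 to 61.6), 13.5-fold (7.55 to 26.7) and 14.97-fold (10.1 to 23.6). Muc11A reached no more than 6.24 FPKM in any other library, whereas Mur29B and Mur18B were highest in Rpn3RNAi, at 68.3 and 58.4 FPKM. The chitin-binding Peritrophin-15a stood at 42.6 FPKM in HttQ138 against 15.3 FPKM in w1118. CG17145 stood at 117 FPKM in HttQ138 against 46.7 FPKM in w1118 and at 38.2 FPKM in CncCRNAi+HttQ138 against 14.5 FPKM in CncCRNAi, ratios of 2.52 (2.08 to 3.05) and 2.64 (1.92 to 3.72).

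Of 28 lipase, lipid storage and sterol genes, 8 rose and 1 fell, with a median of 0.31, and 5 of the 8 reached 10 FPKM in HttQ138 only. Npc2a, a sterol carrier of the lysosome, was the most abundant riser, with 893 FPKM in HttQ138 against 277 FPKM in w1118, a ratio of 3.22 (2.89 to 3.60). It rose in the CncCRNAi pair as well, with 584 FPKM in CncCRNAi+HttQ138 against 127 FPKM in CncCRNAi, but stood at 174 FPKM in Rpn3RNAi against 266 FPKM in attP2. Its relative Npc2f stood at 13.1 FPKM in HttQ138 against 1.73 FPKM in w1118. CG17192, of the lipase family, stood at 106 FPKM in HttQ138 against 13.4 FPKM in w1118, and magro (mag), a secreted gut lipase, at 11.1 FPKM in HttQ138 against 2.21 FPKM in w1118. The gene that fell was brummer (bmm), the triglyceride lipase of lipid droplets, with 59.8 FPKM in HttQ138 against 171 FPKM in w1118, a ratio of 0.349 (0.312 to 0.391). The lysosomal lists did not shift upward. Of 25 genes of the lysosome and endosomal sorting, 3 rose and none fell, but 15 had a log2 ratio below 0 and the median was −0.11, and of 16 V-ATPase genes 11 were below 0 with a median of −0.12. The risers included the lysosomal alpha-mannosidases LManVI (18.3 FPKM in HttQ138, 0.434 FPKM in w1118) and LManII (13.8 FPKM in HttQ138, 1.56 FPKM in w1118), and Vha100-5 alone among the V-ATPase genes, with 10.7 FPKM in HttQ138 against 0.951 FPKM in w1118. LManVI, LManII and Vha100-5 were highest in Rpn3RNAi, at 166, 85.6 and 139.9 FPKM.

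Genes of the enterocyte apical side and its junctions rose against w1118, and all but 1 of them were not 2-fold higher against CncCRNAi or attP2. Of 25 genes of the brush border and smooth septate junctions, 6 rose and none fell, with a median of −0.07. The 3 membrane proteins that together build the smooth septate junction rose: Tsp2A with 70.9 FPKM in HttQ138 against 20.2 FPKM in w1118, mesh with 37.7 FPKM in HttQ138 against 13.6 FPKM in w1118, and Ssk with 70.2 FPKM in HttQ138 against 27.5 FPKM in w1118. The junction protein hoka, which was chosen after its values were seen, stood at 179 FPKM in HttQ138 against 56.8 FPKM in w1118. In the libraries labelled CncCRNAi and attP2, Tsp2A stood at 79.9 and 77.7 FPKM, mesh at 87.1 and 57.5 FPKM, Ssk at 131 and 108 FPKM, and hoka at 259 and 239 FPKM, all above HttQ138. The adhesion protein Fas3 (15.2 FPKM in HttQ138, 5.79 FPKM in w1118) had 21.5 FPKM in CncCRNAi and 23.96 FPKM in attP2. The brush border myosin Myo28B1 stood at 73.2 FPKM in HttQ138 against 31.3 FPKM in w1118, with 64.5 FPKM in CncCRNAi and 53.2 FPKM in attP2, while Myo31DF was not called, at 153 FPKM in HttQ138 against 161 FPKM in w1118. The exception was the adhesion protein Lac, with 12.99 FPKM in HttQ138 against 5.16 FPKM in w1118, 3.02 FPKM in CncCRNAi and 14.6 FPKM in attP2. Of the 8 enterocyte markers that reached 10 FPKM, 6 were called higher, and the part of enterocyte RNA in the digestive and junction genes was not tested.

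Hormone genes did not move as 1 group. Of 11 enteroendocrine hormone and secretory genes, 2 rose and 2 fell, with a median of −0.27, and the 14 enteroendocrine markers summed to 376 FPKM in HttQ138 and 514 FPKM in w1118. Most of the w1118 sum was NPF. The other 13 markers summed to 208 FPKM in HttQ138 and 119 FPKM in w1118, and 10 of the 14 had the larger value in HttQ138. Allatostatin C (AstC) stood at 61.3 FPKM in HttQ138 against 17.9 FPKM in w1118, and CCHa2, a peptide known to promote insulin release, at 21.5 FPKM in HttQ138 against 3.22 FPKM in w1118. Neuropeptide F (NPF) fell, with 167 FPKM in HttQ138 against 396 FPKM in w1118, a ratio of 0.423 (0.359 to 0.494), and with 60.3 FPKM in CncCRNAi+HttQ138 against 198 FPKM in CncCRNAi, while attP2 had only 72.6 FPKM. Tachykinin (Tk) stood at 14.8 FPKM in HttQ138 against 25.2 FPKM in w1118, and the transcription factor prospero (pros), which defines these cells, at 0.757 FPKM in HttQ138 and 0.788 FPKM in w1118. The part of enteroendocrine RNA in these values was not tested.

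Among 4 other peptide hormone genes, a list put together after their values were seen, 3 were called higher, of which Akh and Ptth reached 10 FPKM in HttQ138 only. Akh, the adipokinetic hormone that mobilises stored lipid and sugar and is made in the corpora cardiaca, stood at 55.1 FPKM in HttQ138 and was listed at 0 in w1118, CncCRNAi+HttQ138, Rpn3RNAi and attP2, with 2.26 FPKM in CncCRNAi. Akh was thus high in 1 library of 6. Ptth, the prothoracicotropic hormone, stood at 22.2 FPKM in HttQ138 against 3.75 FPKM in w1118 and at 9.83 FPKM in CncCRNAi+HttQ138 against 4.02 FPKM in CncCRNAi, ratios of 5.93 (2.77 to 16.2) and 2.45 (1.02 to 5.70). Nplp2 stood at 48.0 FPKM in HttQ138 against 17.1 FPKM in w1118.

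Detoxification genes moved in both directions. Of 28 glutathione S-transferases, 6 rose and 2 fell, with a median of 0.26, and 5 of the 6 reached 10 FPKM in HttQ138 only. All 5 named risers were of the epsilon class: GstE3 (54.7 FPKM in HttQ138, 11.4 FPKM in w1118), GstE5 (10.3 FPKM in HttQ138, 0.571 FPKM in w1118), GstE7 (32.2 FPKM in HttQ138, 7.88 FPKM in w1118), GstE9 (13.2 FPKM in HttQ138, 3.37 FPKM in w1118) and GstE10 (13.3 FPKM in HttQ138, 0.440 FPKM in w1118). GstE3 had 45.5 FPKM in CncCRNAi and 50.9 FPKM in attP2, and GstE7 and GstE9 were above their HttQ138 level in both of these controls. GstD4 fell, with 11.8 FPKM in HttQ138 against 35.7 FPKM in w1118, although attP2 had 8.996 FPKM. Genes of this family have close paralogs between which reads can be split.

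Of 28 cytochrome P450 genes, 3 rose and 4 fell, with a median of 0.14. Cyp6d2 stood at 47.2 FPKM in HttQ138 against 9.54 FPKM in w1118, while CncCRNAi had 95.2 FPKM and attP2 85.3 FPKM, and 51.0% of its exon bases are shared with nsr. Cyp6a14 rose, with 24.4 FPKM in HttQ138 against 7.06 FPKM in w1118, and Cyp6a17 fell, with 11.6 FPKM in HttQ138 against 35.97 FPKM in w1118. Cyp9b1 stood at 17.01 FPKM in HttQ138 against 46.7 FPKM in w1118 and at 18.2 FPKM in CncCRNAi+HttQ138 against 38.3 FPKM in CncCRNAi, ratios of 0.365 (0.282 to 0.468) and 0.474 (0.372 to 0.602), and it had 46.2 FPKM in attP2. It was therefore lower in both libraries with HttQ138 than in all 3 controls.

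Redox and metal genes rose in part. Of 27 antioxidant and glutathione synthesis genes, 3 rose and 3 fell, with a median of 0.24. Thioredoxin-2 (Trx2) stood at 281 FPKM in HttQ138 against 121 FPKM in w1118, the secreted superoxide dismutase Sod3 at 14.3 FPKM in HttQ138 against 3.55 FPKM in w1118, and Zw, the glucose-6-phosphate dehydrogenase that supplies NADPH, at 18.0 FPKM in HttQ138 against 6.53 FPKM in w1118. Trx2 was at 342 FPKM in CncCRNAi and 257 FPKM in attP2, so that w1118 alone was low. Sod3 had 5.77 FPKM in CncCRNAi and 12.96 FPKM in attP2, the latter near its HttQ138 level, while Zw had 8.19 and 6.29 FPKM. The peroxiredoxins Prx6b and Prx6c (Prx2540-1 and Prx2540-2) fell, to 28.3 FPKM in HttQ138 against 109.8 FPKM in w1118 and to 13.2 FPKM in HttQ138 against 73.8 FPKM in w1118, and these near-identical copies can also share reads. In attP2, without HttQ138, Prx6b had 41.2 FPKM and Prx6c 15.6 FPKM, and in CncCRNAi they had 52.7 and 51.9 FPKM. Sesn, a stress-induced inhibitor of TORC1, stood at 13.4 FPKM in HttQ138 against 31.7 FPKM in w1118, and 65.1% of its exon bases are shared with CG46429.

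Of 15 metal handling genes, 4 rose and none fell, and the 4 were metallothioneins, small metal-binding proteins, of which all but MtnA reached 10 FPKM in HttQ138 only. MtnA stood at 354 FPKM in HttQ138 against 150.1 FPKM in w1118 and at 206 FPKM in CncCRNAi+HttQ138 against 88.8 FPKM in CncCRNAi, ratios of 2.36 (1.96 to 2.83) and 2.32 (1.85 to 2.92). MtnC (15.9 FPKM in HttQ138, 5.39 FPKM in w1118), MtnD (20.1 FPKM in HttQ138, 5.14 FPKM in w1118) and MtnE (23.8 FPKM in HttQ138, 6.57 FPKM in w1118) lie next to each other in the genome. MtnD and MtnE also rose in the CncCRNAi pair, where MtnC stood at 2.45 FPKM in CncCRNAi+HttQ138 against 4.90 FPKM in CncCRNAi. MtnA was higher in Rpn3RNAi (144 FPKM) than in attP2 (27.005 FPKM). The median of the whole list was −0.09, since the metal transporters and storage proteins in it did not reach 2-fold.

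Secreted growth factors included some of the most repeated rises. Of 12 members, 2 rose and none fell, with a median of 0.12, and both risers reached 10 FPKM in HttQ138 only. Against CncCRNAi, 3 of 14 members were higher and 5 lower, and against attP2, 1 of 14 was higher and 2 were lower. vein (vn), a neuregulin-like EGFR ligand that supports ISC division, stood at 27.3 FPKM in HttQ138 against 5.47 FPKM in w1118 and at 34.1 FPKM in CncCRNAi+HttQ138 against 4.70 FPKM in CncCRNAi, ratios of 4.99 (3.90 to 6.51) and 7.25 (5.63 to 9.35). thisbe (ths), a ligand of the FGF receptor Heartless, stood at 28.7 FPKM in HttQ138 against 6.25 FPKM in w1118 and at 29.9 FPKM in CncCRNAi+HttQ138 against 2.01 FPKM in CncCRNAi, ratios of 4.59 (3.68 to 5.77) and 14.9 (10.5 to 21.5). Neither was higher in Rpn3RNAi, where vn had 13.7 FPKM against 14.3 FPKM in attP2 and ths 2.14 FPKM against 7.97 FPKM in attP2. Stall (stl), a secreted ADAMTS-type protein counted with the extracellular matrix, also rose in both pairs, with 56.1 FPKM in HttQ138 against 6.99 FPKM in w1118 and 46.1 FPKM in CncCRNAi+HttQ138 against 2.97 FPKM in CncCRNAi, and it differed from vn and ths in Rpn3RNAi, where it had 35.9 FPKM against 22.8 FPKM in attP2. The JAK-STAT ligand upd3 stood at 33.0 FPKM in HttQ138 against 16.8 FPKM in w1118, short of 2-fold, but at 111 FPKM in CncCRNAi and 51.3 FPKM in attP2.

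On the receiving side more values lay below 0 than above it, and few genes were called. The median was −0.08 over all genes and −0.24 over genes of at least 3000 nucleotides, and 3.35% of all genes were called lower. Of 17 EGFR and FGF signalling genes, none rose and 2 fell, with a median of −0.20: Egfr itself, with 39.9 FPKM in HttQ138 against 84.2 FPKM in w1118, and Cbl, the ubiquitin ligase that takes the receptor to degradation, with 82.6 FPKM in HttQ138 against 167 FPKM in w1118. Both had lower values in other controls, with Egfr at 38.8 FPKM in CncCRNAi and 34.1 FPKM in attP2 and Cbl at 78.8 FPKM in CncCRNAi and 98.6 FPKM in attP2. Of 24 genes of Wnt, TGF-beta and Hedgehog reception, a list put together after values were seen, 3 fell and none rose, with a median of −0.40. None of 25 genes of this list was called lower than CncCRNAi and none of 24 lower than attP2. The list medians there were −0.40 and −0.36, against −0.26 and −0.19 over all genes. arrow (arr), the Wingless co-receptor, stood at 22.03 FPKM in HttQ138 against 58.0 FPKM in w1118, and the type II receptor punt (put) at 15.98 FPKM in HttQ138 against 35.5 FPKM in w1118. E-cadherin (shg), which holds ISCs and EBs together, fell to 32.5 FPKM in HttQ138, against 80.3 FPKM in w1118, and so did the adhesion protein echinoid (ed), with 8.28 FPKM in HttQ138 against 21.7 FPKM in w1118.

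Of 23 targets and members of JAK-STAT, JNK and Hippo signalling, none rose and 2 fell, which were the JNK kinase hemipterous (hep, 22.8 FPKM in HttQ138, 58.2 FPKM in w1118) and the cell death gene hid (9.34 FPKM in HttQ138, 28.1 FPKM in w1118). hid had 19.6 FPKM in CncCRNAi and 22.9 FPKM in attP2, so HttQ138 was the lowest of 6. The JNK target puc stood at 114 FPKM in HttQ138 against 66.9 FPKM in w1118, short of 2-fold. It had 124 FPKM in CncCRNAi and 118 FPKM in attP2, both above HttQ138. Of 12 Notch pathway genes none was called, and the Notch targets E(spl)mbeta-HLH (1094 FPKM in HttQ138, 1509 FPKM in w1118) and E(spl)malpha-BFM (428 FPKM in HttQ138, 824 FPKM in w1118) stood among the most abundant transcripts of the progenitors.

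Of 18 progenitor and stem cell genes, none rose and 3 fell, with a median of −0.19. miranda (mira), an adaptor of asymmetric division, stood at 42.1 FPKM in HttQ138 against 126 FPKM in w1118 and at 28.9 FPKM in CncCRNAi+HttQ138 against 93.2 FPKM in CncCRNAi, ratios of 0.335 (0.298 to 0.377) and 0.309 (0.270 to 0.353). zfh2, a transcription factor of progenitors, stood at 22.8 FPKM in HttQ138 against 47.5 FPKM in w1118. lin-28, an RNA-binding protein of ISCs that was chosen after its values were seen, stood at 25.98 FPKM in HttQ138 against 100.4 FPKM in w1118, 17.9 FPKM in CncCRNAi+HttQ138 against 50.8 FPKM in CncCRNAi and 22.2 FPKM in Rpn3RNAi against 56.9 FPKM in attP2. The 3 libraries with HttQ138 or Rpn3RNAi were thus all below the 3 controls for lin-28, and the share of all genes with this order was not counted. The progenitor transcription factors esg, Sox21a (134 FPKM in HttQ138, 102 FPKM in w1118) and Sox100B (215 FPKM in HttQ138, 191 FPKM in w1118) were not called, and Delta, the ISC ligand of Notch, had 1.53 FPKM in HttQ138 and 1.25 FPKM in w1118. The part of the mix of ISCs, EBs and enterocytes in these values was not tested.

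Of 26 DNA replication and repair genes none was called against w1118, with a median of −0.24. Of 33 mitosis and cell cycle genes 2 rose (6.06%) and 3 fell (9.09%), with a median of −0.20. The shares of all genes were 5.57% higher and 3.35% lower than w1118. The replication list was lower against the other controls: HttQ138 was called lower than CncCRNAi in 15 of 34 genes, with a median of −0.87, and lower than attP2 in 3 of 31 genes, with a median of −0.56. For mitosis and cell cycle these counts were 6 of 37 genes (median −0.50) against CncCRNAi and 2 of 30 genes (median −0.37) against attP2. Over all genes, 6.82% were lower than CncCRNAi and 3.79% lower than attP2, with medians of −0.26 and −0.19. The replication list was itself higher in these controls than in w1118. It had 11 of 35 genes called higher in CncCRNAi (median 0.73) and 3 of 32 in attP2 (median 0.46). The mitosis and cell cycle genes that rose against w1118 were mad2 of the spindle checkpoint (15.2 FPKM in HttQ138, 4.87 FPKM in w1118) and pebble (pbl), the RhoGEF of cytokinesis (64.3 FPKM in HttQ138, 28.6 FPKM in w1118). The CDK inhibitor dacapo (dap) fell, with 14.4 FPKM in HttQ138 against 30.5 FPKM in w1118, and it stood at 13.8 FPKM in CncCRNAi+HttQ138 against 27.2 FPKM in CncCRNAi and at 16.9 FPKM in Rpn3RNAi against 32.5 FPKM in attP2. The paper reported the opposite direction, a rise of Dacapo in ISCs, by antibody with HttQ138 or rpn3 knockdown and by in situ hybridization with HttQ138. Those images were taken after a shorter time at 29 °C. Their HttQ138 and rpn3 knockdown flies also carried Su(H)GBE::Gal80, and the antibody signal was scored in ISCs. The cells sorted here were ISCs and EBs, from flies without that transgene. Time, measure and cells therefore differ from those here. The dap values in the 3 libraries with HttQ138 or Rpn3RNAi lay below those of the 3 controls, and the share of all genes that separate in this way was not counted. The other fallers were the centromere factor cal1 (3.44 FPKM in HttQ138, 10.9 FPKM in w1118) and the kinesin Klp64D (4.70 FPKM in HttQ138, 10.6 FPKM in w1118).

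Nutrient sensing and messenger RNA decay held the most genes called lower than w1118 among the lists, 11 and 7, and both lists were put together after values were seen. Against CncCRNAi, 6 of 50 nutrient sensing genes and 1 of 41 decay genes were called lower, where 6.82% of all genes were. Against attP2 the counts were 2 of 49 and 2 of 38, where 3.79% of all genes were. Of 49 genes of nutrient sensing and growth control, 11 fell and none rose, 4 had a log2 ratio above 0, and the median was −0.62, against −0.37 for 50 genes in the CncCRNAi pair, where none was called lower. bunched (bun), a growth regulator of the TSC-22 family, was the most abundant faller, with 376 FPKM in HttQ138 against 1017 FPKM in w1118, a ratio of 0.370 (0.357 to 0.383). It stood at 367 FPKM in CncCRNAi+HttQ138 against 520.1 FPKM in CncCRNAi and at 397 FPKM in Rpn3RNAi against 636 FPKM in attP2. Its level was lower in each library with HttQ138 or Rpn3RNAi than in all 3 controls, and the share of all genes with this order was not counted. bmm and Sesn are also on this list, as is the lipid phosphatase EDTP (31.9 FPKM in HttQ138, 76.5 FPKM in w1118). bmm stood at 77.1 FPKM in CncCRNAi and 72.2 FPKM in attP2, and Sesn at 13.5 FPKM in CncCRNAi and 14.1 FPKM in attP2.

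Of 39 genes of messenger RNA decay and translational repression, 7 fell and none rose, with a median of −0.27. Pdcd4, an inhibitor of translation initiation, stood at 35.7 FPKM in HttQ138 against 109.6 FPKM in w1118, a ratio of 0.326 (0.288 to 0.369). PAN3, a subunit of a deadenylase, stood at 59.1 FPKM in HttQ138 against 160.1 FPKM in w1118, Paip2, which holds the poly(A)-binding protein off, at 40.8 FPKM in HttQ138 against 112 FPKM in w1118, and the decapping enzyme DCP2 at 33.6 FPKM in HttQ138 against 87.6 FPKM in w1118. In the CncCRNAi pair these 4 genes had ratios of 0.706, 0.674, 0.591 and 0.632, in the same direction and short of 2-fold. The translational repressor brat stood at 22.8 FPKM in HttQ138 against 51.5 FPKM in w1118.

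**Figure D4:**
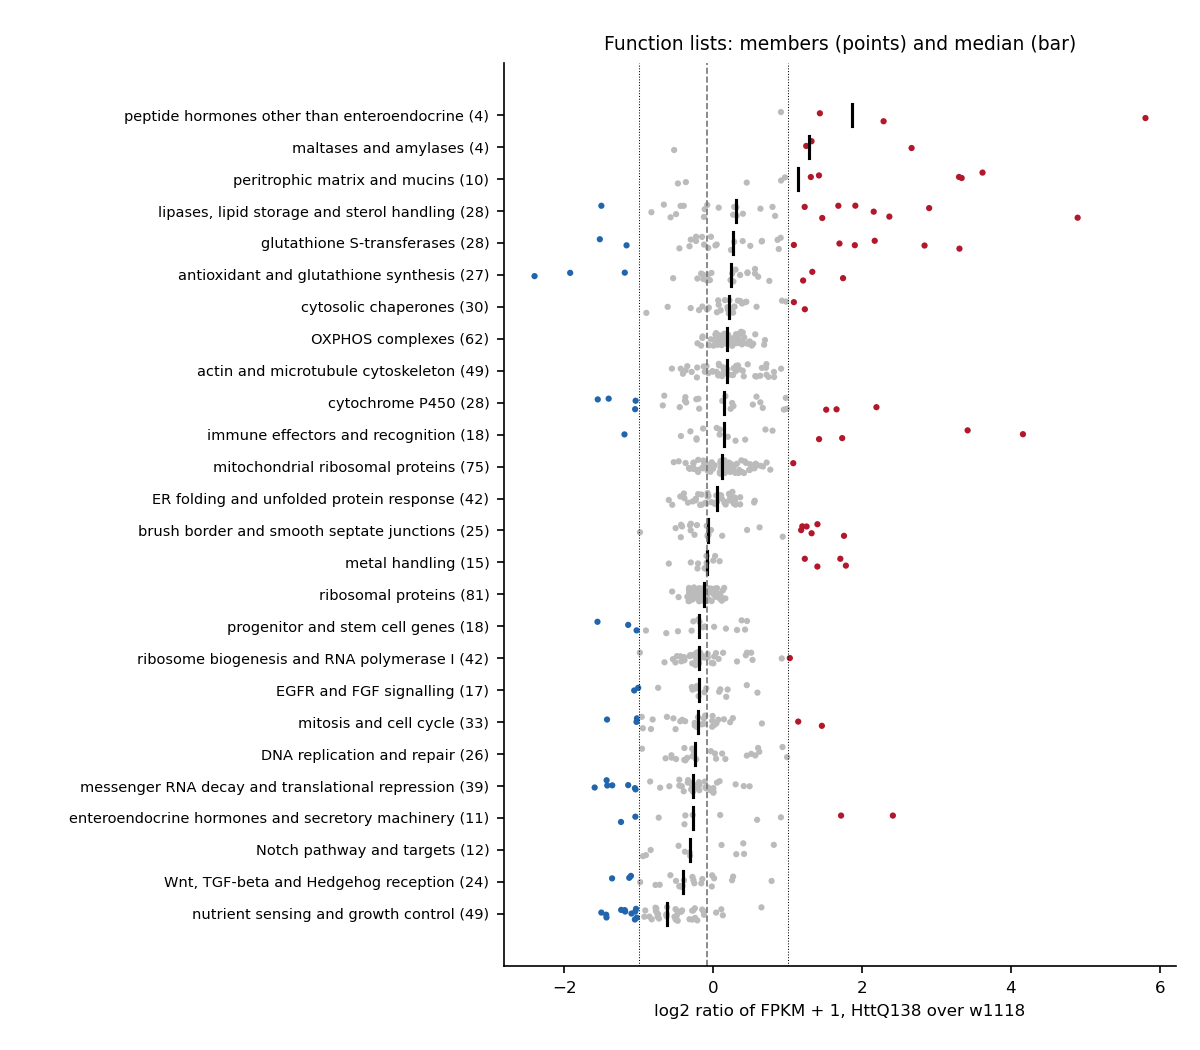
Log2 ratio of FPKM + 1, HttQ138 over w1118, of each member (points, red or blue where called higher or lower) of 26 function lists, with the number of members in parentheses and the median as a black bar. The dashed line is the median of all genes (−0.08) and dotted lines mark 2-fold. Medians run from −0.62 for nutrient sensing and growth control to 1.86 for the 4 peptide hormones, and the 81 ribosomal proteins and 62 OXPHOS genes form narrow groups within 2-fold.

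The housekeeping lists of this paragraph stayed within 2-fold, apart from 1 mitochondrial ribosomal protein. Elsewhere, 1 of 42 genes of ribosome biogenesis and RNA polymerase I rose. The ubiquitin list of 50 genes held 1 that rose and 1 that fell. None of 81 ribosomal proteins was called, and their log2 ratios ran between −0.55 and 0.16 with a median of −0.12. Of 62 genes of the mitochondrial respiratory complexes, 56 had a log2 ratio above 0 and none was called, with a median of 0.19. COX5A stood at 337 FPKM in HttQ138 against 208 FPKM in w1118. Of 75 mitochondrial ribosomal proteins, mRpL34 was the 1 that rose, with a median of 0.12, and of 42 genes of ER folding and the unfolded protein response, 17 genes of the TCA cycle and 18 of glycolysis none was called, although Ldh, the lactate dehydrogenase, had 106 FPKM in HttQ138 against 52.5 FPKM in w1118. Ldh was above its HttQ138 level in the other controls, at 277 FPKM in CncCRNAi and 190 FPKM in attP2. None of 49 actin and microtubule genes was called, while Act5C stood at 3785 FPKM in HttQ138 against 2304 FPKM in w1118 and Act42A at 547 FPKM in HttQ138 against 290.3 FPKM in w1118.

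Of 30 cytosolic chaperones, 2 rose and none fell, with a median of 0.21. starvin (stv), a BAG-type partner of Hsp70, stood at 75.6 FPKM in HttQ138 against 31.6 FPKM in w1118, 2.39 times as much (2.06 to 2.80), and at 116 FPKM in CncCRNAi+HttQ138 against 72.9 FPKM in CncCRNAi. The small heat shock protein Hsp27 stood at 47.9 FPKM in HttQ138 against 22.1 FPKM in w1118, with 76.2 FPKM in CncCRNAi. Hsp83, the fly Hsp90, stood at 480.0 FPKM in HttQ138 and 243 FPKM in w1118, just short of 2-fold, with 847 FPKM in CncCRNAi and 459 FPKM in attP2. The median log2 ratio of the list was 0.87 for CncCRNAi over w1118 and 0.65 for attP2 over w1118.

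Of 18 immune effector and recognition genes, 4 rose and 1 fell, with a median of 0.14, and all 4 reached 10 FPKM in HttQ138 only. IM33 (CG16712), an immune-induced peptide gene, stood at 58.5 FPKM in HttQ138 against 4.56 FPKM in w1118 and at 66.4 FPKM in Rpn3RNAi against 4.30 FPKM in attP2, but was listed at 0 in CncCRNAi+HttQ138 against 23.3 FPKM in CncCRNAi. PGRP-SC2, an amidase that cleaves peptidoglycan, stood at 16.7 FPKM in HttQ138 against 5.61 FPKM in w1118 and at 6.19 FPKM in CncCRNAi+HttQ138 against 2.15 FPKM in CncCRNAi. The attacin AttD fell, with 8.82 FPKM in HttQ138 against 21.4 FPKM in w1118. The NF-kappaB factor Rel (615 FPKM in HttQ138, 718 FPKM in w1118) and its pathway inhibitor pirk (743 FPKM in HttQ138, 919 FPKM in w1118) were high in both and not called.

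Of 20 genes of serine, one-carbon and amino acid metabolism, 3 rose and none fell, and the 3 reached 10 FPKM in HttQ138 only. They were the alcohol dehydrogenase Adh (47.02 FPKM in HttQ138, 8.75 FPKM in w1118), which shares 93.9% of its exon bases with Adhr, glutamine synthetase Gs2 (10.3 FPKM in HttQ138, 1.57 FPKM in w1118) and asparagine synthetase AsnS (22.9 FPKM in HttQ138, 8.79 FPKM in w1118). AsnS was higher in the other controls, at 36.3 FPKM in CncCRNAi and 33.1 FPKM in attP2. Adh had 4.42 FPKM in CncCRNAi and 4.61 FPKM in attP2, below its level in HttQ138.

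The largest falls included neighbouring genes. unc-104, a kinesin-3 that carries synaptic vesicle precursors in neurons, stood at 32.6 FPKM in HttQ138 against 233 FPKM in w1118, a ratio of 0.140 (0.130 to 0.151), but at 228 FPKM in CncCRNAi+HttQ138 against 151 FPKM in CncCRNAi. Its neighbours CG34189 (3.72 FPKM in HttQ138, 25.4 FPKM in w1118), CG5267 (3.22 FPKM in HttQ138, 26.1 FPKM in w1118), CG42392 (0 in HttQ138, 16.4 FPKM in w1118) and CG5348 (0.653 FPKM in HttQ138, 12.5 FPKM in w1118) were all among the 15 largest falls. These 5 genes were lower in HttQ138, Rpn3RNAi and attP2 than in w1118, CncCRNAi+HttQ138 and CncCRNAi, with the exception of CG42392, for which attP2 (8.38 FPKM) lay above CncCRNAi (6.96 FPKM). The pattern therefore does not follow the presence of HttQ138, and 26.3% of the exon bases of CG42392 are shared with unc-104. A second run of adjacent falls held Prx6c, CG11825 (6.96 FPKM in HttQ138, 42.9 FPKM in w1118), Prx6b and CG12896 (20.9 FPKM in HttQ138, 61.3 FPKM in w1118). Each gene of this run was highest in w1118, and attP2 had 5.84 FPKM of CG11825 and 39.3 FPKM of CG12896.

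With genes under 10 FPKM skipped, 13 runs of at least 3 adjacent genes were higher and 2 runs were lower, which took in 53 and 9 genes. Several of the runs are known gene families, such as the trypsin, Jonah and metallothionein genes, and others are not named as families, such as CG13510, CG13511, CG42565 and CG4250 beside Cyp6d2. CG13510 stood at 343 FPKM in HttQ138 against 167 FPKM in w1118, and CncCRNAi (372 FPKM) and attP2 (367 FPKM) were above it. Of the further large falls, ect stood at 1.00 FPKM in HttQ138 against 16.4 FPKM in w1118, CG11241 at 7.48 FPKM in HttQ138 against 41.8 FPKM in w1118, CG9021 at 19.8 FPKM in HttQ138 against 107 FPKM in w1118 and Blos4, a subunit of the BLOC-1 complex of lysosome-related organelles, at 0.604 FPKM in HttQ138 against 10.8 FPKM in w1118. CG11241 fell in the CncCRNAi pair too, with 4.97 FPKM in CncCRNAi+HttQ138 against 20.4 FPKM in CncCRNAi. In CncCRNAi and attP2, ect had 2.04 and 3.89 FPKM, CG9021 50.8 and 26.9 FPKM and Blos4 6.37 and 5.63 FPKM. For each of these genes, CG11241 included, w1118 had the highest of the 6 values.

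The direction of change followed transcript length. Of 1014 genes with transcripts under 1000 nucleotides, 13.3% were higher and 3.35% lower in HttQ138, while of 1361 genes of at least 3000 nucleotides 1.98% were higher and 4.70% lower. The median log2 ratio was 0.12, −0.01, −0.12 and −0.24 from the shortest to the longest of the 4 length classes. In the CncCRNAi pair the medians were 0.02, −0.07, −0.15 and −0.21, whereas for attP2 over w1118 they were −0.03, 0.12, 0.13 and 0.08. The 256 higher genes had a median length of 1176 nucleotides and the 176 lower genes one of 2457 nucleotides, and the falling lists held long genes, with median lengths of 3229 nucleotides for nutrient sensing and 3310 nucleotides for messenger RNA decay, against 738 nucleotides for the respiratory complexes. The part of transcript length in the list medians was not tested.

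**Figure D5:**
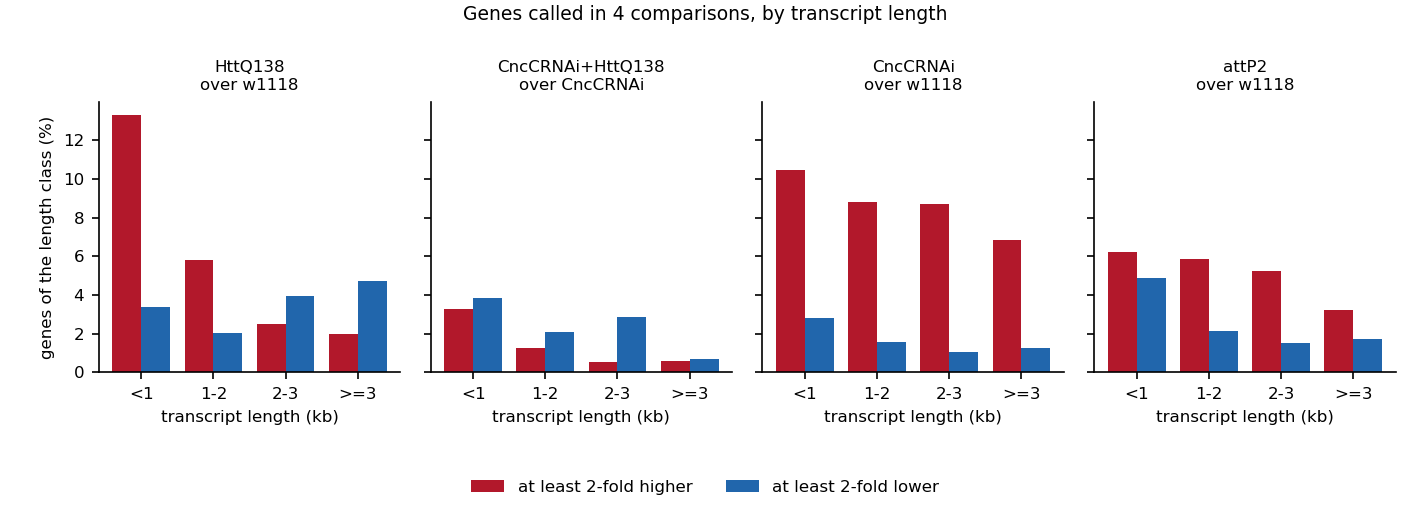
Percentage of genes called at least 2-fold higher (red) or lower (blue) in 4 comparisons, by the median transcript length of the gene in kb. In HttQ138 over w1118 the share higher was 13.3% in the shortest class and 1.98% in the longest, and the share lower was 3.35% and 4.70%.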

How the data were processed

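The authors sorted GFP-positive cells, made libraries from total RNA, sequenced 150 bp paired-end reads and mapped them with the Tuxedo suite to the fly genome (release 5.75 as the study gives it). Tool versions and any scaling beyond FPKM are not given in the sources used here. The deposited values are FPKM per gene, already divided by transcript length and mapped fragments, and were used as they stand.

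The comparison, the members and all lists were chosen with earlier results of these data known. Log2 ratios were taken of FPKM + 1, genes needed 10 FPKM in either library, and a 2-fold difference was called. Of 15603 listed genes, 14927 matched the reference (release 6, annotation 115) by identifier, 213 by symbol and 219 by synonym, 98.4% in all. The 20 unmatched genes with at least 10 FPKM, 4 of them higher and 1 lower, were left out. Symbols are those of the reference. Transcript lengths are medians over the transcripts of a gene.

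Fragments were estimated from the steps of low FPKM values, with lengths reduced by 155 nucleotides; 83.2% to 87.0% of values used fell within 0.1 of a whole number. Intervals are exact (Clopper-Pearson) and are not given for transcripts under 300 nucleotides. The calculation was tested on simulated data.

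Named genes are the 15 largest rises and falls beyond the lists set aside, esg and cnc, cell type markers, and up to 5 members of each function list in each direction. There were 47 function lists beside the 3 set aside, and 4 were added after values were seen, as were the comparison of neighbouring genes and genes said to be so chosen. Only the genes described above are named out of those the rule allows. No p-value is given, since each group is 1 library. Python 3.11.15, numpy 2.4.6, pandas 2.3.3 and scipy 1.17.1 were used.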

Additional observations from a re-analysis of the deposited data

Results flagged for a closer look

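Of the named genes with at least 10 FPKM in both pairs of libraries with HttQ138, CG12057, IM33 and Mal-A1 were called in opposite directions in the 2 pairs. CG12057 had a log2 ratio of 4.25 for HttQ138 over w1118 and −2.12 for CncCRNAi+HttQ138 over CncCRNAi. IM33 had 3.42 for HttQ138 over w1118 and −4.60 for CncCRNAi+HttQ138 over CncCRNAi, a value of FPKM + 1 that is no fold, since CncCRNAi+HttQ138 lists the gene at 0. Mal-A1 had 2.67 for HttQ138 over w1118 and −2.37 for CncCRNAi+HttQ138 over CncCRNAi. The difference between the pairs was not tested, since each group is 1 library.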

How the results depend on the processing

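No paired analysis was possible because each group is 1 library, and for the same reason none could be left out. The 298 higher genes were 192 at a limit of 20 FPKM, 783 with no limit and 167 at a 3-fold threshold. The 179 lower genes were 90 with a pseudocount of 5 FPKM, 380 with no limit, 25 at a 3-fold threshold and 379 with CncCRNAi in place of w1118. Of 47 function lists, 21 had a median log2 ratio above 0, 11 with CncCRNAi as control and 9 with attP2, and the maltase and amylase list turned to −1.48 and −1.16 with these controls and the odorant binding list to −0.13 with CncCRNAi. With CncCRNAi as control, log2 ratios changed sign for AsnS (−0.64), Cyp6d2 (−0.996), Fas3 (−0.47), GstE7 (−0.32), GstE9 (−0.22), Hsp27 (−0.66), Mal-A1 (−1.48), Ssk (−0.89), Trx2 (−0.28), Tsp2A (−0.17), Vha100-5 (−0.19), hoka (−0.53), mesh (−1.19), Cbl (0.066) and Egfr (0.039). With attP2 as control they did so for AsnS (−0.51), Cyp6d2 (−0.84), Fas3 (−0.62), GstE7 (−0.36), GstE9 (−1.43), Mal-A1 (−0.91), Ssk (−0.61), Tsp2A (−0.13), hoka (−0.42), mesh (−0.60), Egfr (0.22), GstD4 (0.36) and NPF (1.19). The cause was not tested. Of 65 named higher genes, 41 stayed 2-fold higher with CncCRNAi and 40 with attP2, and of 36 named lower genes 11 and 12 stayed 2-fold lower. Scaling each library by its median ratio kept all 65 and left 31 of the 36 called, with no change of sign among them. It took the number of lists above 0 to 24, since the medians of the brush border, histone and serine and amino acid lists, just below 0, moved just above it, as did the values of Myo31DF, cnc and pros, which were not called. A limit on the mean of all 6 libraries, added after seeing the data, gave 279 higher and 146 lower genes. FPKM of genes under 10 rest on few fragments, and without replicates no spread between animals is known.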
